A study of Mus musculus with 7 samples.

Results

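Mouse mammary tumors that had grown from transplanted cell lines were compared with tumors that had arisen spontaneously, as 3 single-cell RNA libraries against 4. The transplanted libraries were 1 tumor of 4T1, a BALB/C mammary carcinoma line transduced with pLenti-GFP before transplantation, and 2 PyMT tumors (A and B) of FF99WT, a FVB/NJ line made from an MMTV-PyMT tumor whose FIP200 alleles are floxed but which carried no Cre recombinase. The spontaneous libraries were 2 Neu tumors (A and B) of MMTV-Neu mice, from a strain crossed with floxed FIP200 mice (for Neu A the methods state floxed FIP200 alleles without Cre), and 2 BRCA1-null tumors (A and B) of K14-Cre mice with floxed Brca1 and Trp53 (Brca1 F/F and Trp53 F/F), all labelled FVB/NJ and adult. MMTV is a viral promoter active in mammary epithelium, PyMT is a viral middle T oncogene, Neu is the rat form of ErbB2, and K14-Cre deletes the floxed genes in cells that have expressed Keratin 14. Every tumor was untreated, was taken at about 1000 mm3 and was sorted for CD24+ Lin- cells, meaning cells without the blood, endothelial and erythroid surface markers CD45, CD31 and Ter119. A library was assigned by its tumor model, and the 7 libraries of the series all entered, with 5540 cells kept from transplanted and 6628 from spontaneous tumors.

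Transplant origin came with other differences that could not be told apart from it. Each origin held only 2 tumor models, both PyMT tumors came from 1 line, both lines had been grown in culture, and the oncogene differed in all 4 models. The only BALB/C tumor was transplanted, so strain was confounded as well. A difference between the origins is therefore also a difference between 4T1 and PyMT on the one side and Neu and BRCA1-null on the other.

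Cell lines are passaged on plastic before they form a tumor, and they are injected as a selected, already malignant population into a grown host. Spontaneous tumors develop over months from single mammary epithelial cells inside their own tissue. Mammary epithelium holds luminal cells, which carry simple keratins such as Keratin 7 and Keratin 8, and basal cells, which carry Keratin 5, Keratin 14 and contractile proteins, with fibroblasts, pericytes, endothelium and immune cells around them.

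The libraries held 5578911 to 37693300 unique molecular identifiers (UMIs, single captured transcripts) in 245 to 2308 kept cells each, with a median of 8609 to 19410.5 UMIs per cell and 3.48% to 4.98% of UMIs from mitochondrial genes. The shallowest was BRCA1-null A, and 118 barcode sequences occurred in more than 1 library. The epithelial marker Epcam was present in all of them, at 227 to 3955 CPM (counts scaled to a common library size), and the leukocyte marker Ptprc was nearly absent, with 0 to 25 UMIs in a whole library. BRCA1-null tumors stood apart, since 57.1% and 25.8% of their cells passed as keratin cells, that is, cells with at least 2 UMIs of Epcam, Krt8 and Krt18 and none of Ptprc, Pecam1 or the collagens Col1a1, Col1a2 and Col3a1. That share was 90.5% to 97.9% in the other 5 libraries. Because the values below are sums over a library, more cells of a type and more RNA per cell could not be told apart, and named values were therefore also computed from keratin cells alone. The genes that define the models did not separate the origins, but Brca1 and Trp53 were altered by design in the BRCA1-null model only. Erbb2 was counted as the mouse gene, so its level need not reflect the rat Neu transgene. Trp53 was at 24.6 to 105 CPM, Brca1 at 0.319 to 8.17 CPM, Erbb2 at 2.72 to 24.8 CPM and Rb1cc1 (FIP200) at 28.9 to 68.0 CPM over the 7 libraries, and a 3' count need not drop when inner exons are deleted. The sort marker Cd24a overlapped as well, at 236 to 696 CPM.

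A gene was said to separate the origins where each library of the one origin lay above each library of the other. Of 12798 genes tested, 1036 (8.10%) separated with higher levels in transplanted tumors and 1108 (8.66%) with lower levels, 2144 (16.8%) in all. Far fewer passed the test across all genes (edgeR quasi-likelihood, 5 residual degrees of freedom), namely 4 that were higher (0.0313%) and 12 that were lower (0.0938%), and all 16 also separated. Of the separating genes 713 higher and 838 lower had an unadjusted edgeR p under 0.05. Among all 12798 genes tested, separating or not, 2144 had such a p, by coincidence the same number as separated. The rule and the test use the same libraries, so these counts are not separate support for the rule. An exact permutation of 3 against 4 libraries has 35 splits and cannot go below p = 0.0571. Both the fit and these splits treat each library as an independent replicate of its origin. Libraries of the same tumor model are not independent samples of an origin. The n, SE and p given here and below therefore overstate the replication of origin. Fitted log2 differences were 2.50 to 5.65 for the 4 genes that rose and -7.37 to -4.29 for the 12 that fell, and no gene that fell exceeded 2.17 CPM in any transplanted tumor.

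The count of genes that passed hung on single libraries. With edgeR no gene passed, in either direction, when PyMT A, PyMT B, Neu A, Neu B or BRCA1-null A was left out, although 1463, 1572, 1538, 1572 and 2034 genes then had an unadjusted p under 0.05. Without BRCA1-null B 9 passed as higher and 15 as lower, without 4T1 12 and 9, and without both BRCA1-null libraries 237 and 363. With the replicate letter, which is the sequencing batch according to the methods, as a replicate block and without 4T1, none passed and 1848 had an unadjusted p under 0.05. A Wald test in DESeq2 on all 7 libraries called 467 higher and 790 lower.

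Of the 4 genes that rose, Krt7 and Rnf19b were the best expressed. Krt7 encodes Keratin 7, a filament protein of simple epithelia, and lies on chromosome 15 from 101411043 to 101430313 (GRCm38). Krt7 stood at 496 CPM in 4T1, 886 and 627 CPM in PyMT A and B, 49.3 and 56.0 CPM in BRCA1-null A and B, and 24.8 and 41.3 CPM in Neu A and B. The lowest transplanted library was 8.86 times the highest spontaneous one. The means were 669.8 ± 198 CPM in transplanted (SD, n = 3) and 42.9 ± 13.4 CPM in spontaneous tumors (SD, n = 4) (log2 difference 3.97 ± 0.38 SE, adjusted p = 0.028, here and throughout as transplanted minus spontaneous). In keratin cells alone Krt7 still separated, with 494 CPM in 4T1, 884 and 629 CPM in PyMT A and B, 58.0 and 91.0 CPM in BRCA1-null A and B, and 24.6 and 42.5 CPM in Neu A and B, and there the lowest transplanted library was 5.43 times the highest spontaneous one. Rnf19b, an E3 ubiquitin ligase on chromosome 4 from 129058271 to 129085886, was at 163 CPM in 4T1, 198 and 169 CPM in PyMT A and B, 16.3 and 25.4 CPM in BRCA1-null A and B, and 17.5 and 21.2 CPM in Neu A and B. Both origins were tight for this gene, and the groups lay far apart (log2 difference 3.13 ± 0.27 SE, adjusted p = 0.028).

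Morc4 and Fam167a completed the genes that rose. Morc4, an X-linked gene of the MORC family of chromatin-associated ATPases, was at 44.5 CPM in 4T1, 33.7 and 44.8 CPM in PyMT A and B, 6.66 and 8.53 CPM in BRCA1-null A and B, and 6.81 and 6.91 CPM in Neu A and B. Fam167a was at 34.3 CPM in 4T1, 18.3 and 26.7 CPM in PyMT A and B, 0.908 and 0.631 CPM in BRCA1-null A and B, and 0.437 and 0.226 CPM in Neu A and B. Neither gene overlapped between the origins (Morc4, log2 difference 2.50 ± 0.27 SE, adjusted p = 0.03, and Fam167a, log2 difference 5.65 ± 0.55 SE, adjusted p = 0.028). All 4 genes separated the origins in keratin cells too.

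The widest gap among the genes that fell, on the log2 scale with a prior count of 2, was that of Snhg18, a long noncoding RNA that hosts a small nucleolar RNA, on chromosome 15 from 32240565 to 32244662. Snhg18 was at 0.748 CPM in 4T1, 0.192 and 0.572 CPM in PyMT A and B, 44.5 and 81.9 CPM in BRCA1-null A and B, and 46.8 and 81.8 CPM in Neu A and B. All 3 transplanted tumors held less than 1 CPM, from 39 UMIs in total, and the 4 spontaneous tumors held 6368 UMIs (log2 difference -6.94 ± 0.62 SE, adjusted p = 0.028). Rangrf, which encodes a factor that binds the GTPase Ran, showed the same kind of near absence with 0.704 CPM in 4T1, 1.41 and 1.05 CPM in PyMT A and B, 57.6 and 73.5 CPM in BRCA1-null A and B, and 33.3 and 31.0 CPM in Neu A and B (log2 difference -5.53 ± 0.53 SE, adjusted p = 0.028).

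A pair of glutathione transferases, enzymes that conjugate electrophiles to glutathione, fell together. Gstm1 was at 1.54 CPM in 4T1, 2.17 and 1.36 CPM in PyMT A and B, 31.9 and 56.3 CPM in BRCA1-null A and B, and 108 and 137 CPM in Neu A and B (log2 difference -5.62 ± 0.65 SE, adjusted p = 0.0384). Gstt2 was at 0.440 CPM in 4T1, 0.319 and 0.241 CPM in PyMT A and B, 15.0 and 10.7 CPM in BRCA1-null A and B, and 36.3 and 29.3 CPM in Neu A and B (log2 difference -6.08 ± 0.65 SE, adjusted p = 0.03). Both were at their highest in Neu and lower in BRCA1-null tumors, yet the BRCA1-null libraries still lay above all transplanted ones. The other members of the list of NRF2 targets and glutathione enzymes did not share this, since of 20 tested 1 separated higher (Txnrd1), 1 lower (Gstm1) and the median log2 difference was 0.14. Over all genes tested 8.10% separated higher and 8.66% lower. Gstt2 was not on that list of NRF2 targets and glutathione enzymes.

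The chemokine Cxcl12, the cytokine gene Tnfsf12 and Vstm4 also fell. Cxcl12, the chemokine that attracts cells bearing CXCR4, was at 0.880 CPM in 4T1, 0.447 and 0.241 CPM in PyMT A and B, 34.8 and 39.7 CPM in BRCA1-null A and B, and 26.0 and 13.5 CPM in Neu A and B. No transplanted library reached 1 CPM (log2 difference -5.76 ± 0.68 SE, adjusted p = 0.0384), and without fibroblast-marked cells the gap remained, with 0.0453 CPM in 4T1, 0.454 and 0.167 CPM in PyMT A and B, 44.6 and 11.9 CPM in BRCA1-null A and B, and 25.3 and 13.6 CPM in Neu A and B in keratin cells. Tnfsf12, which encodes the cytokine TWEAK, had 6 UMIs over the 3 transplanted tumors and 1388 over the spontaneous ones (log2 difference -7.37 ± 0.91 SE, adjusted p = 0.0455). Vstm4 had 5 and 604 UMIs (log2 difference -6.38 ± 0.65 SE, adjusted p = 0.028), and in keratin cells of BRCA1-null B it was at 0.516 CPM, close to the 0.130 CPM of PyMT A.

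The remaining 5 genes that fell had varied roles. Krt23, a type I keratin, was at 0.528 CPM in 4T1, 1.09 and 0.362 CPM in PyMT A and B, 40.4 and 21.7 CPM in BRCA1-null A and B, and 17.0 and 25.9 CPM in Neu A and B (log2 difference -5.33 ± 0.60 SE, adjusted p = 0.0362), the reverse of Krt7. Peli2, an E3 ligase of Toll-like receptor and interleukin 1 signaling, had 9 UMIs in transplanted and 1482 in spontaneous tumors (log2 difference -6.89 ± 0.82 SE, adjusted p = 0.0384). Hs3st3b1, a sulfotransferase that modifies heparan sulfate, had 4 and 721 UMIs (log2 difference -6.97 ± 0.86 SE, adjusted p = 0.0455). With counts so few the fitted sizes of these differences depend on how zeros are treated. Armcx1, an X-linked gene of mitochondrial transport, was at 0.132 to 0.192 CPM in transplanted and 3.78 to 6.84 CPM in spontaneous tumors (log2 difference -4.97 ± 0.51 SE, adjusted p = 0.028). Fam212a was at 0.748 to 1.18 CPM and 12.1 to 30.0 CPM (log2 difference -4.29 ± 0.50 SE, adjusted p = 0.0384).

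**Figure D1:**
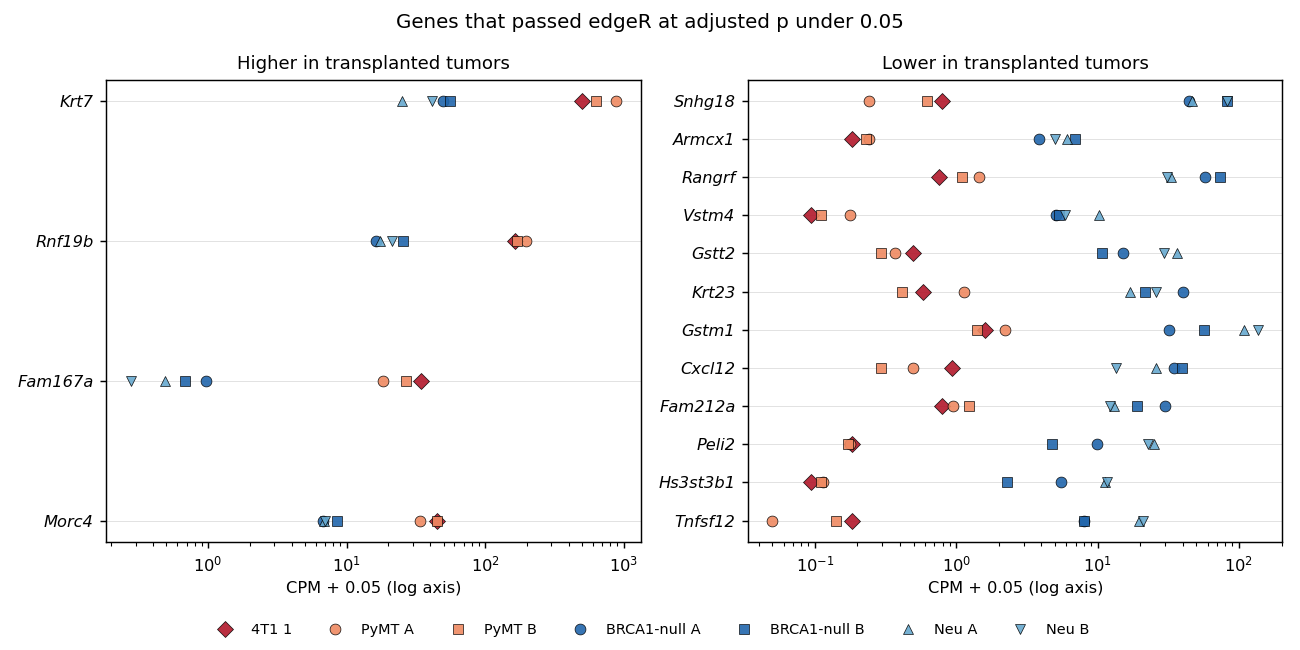
Levels of the 16 genes that passed edgeR, as CPM plus 0.05 on a log axis, with 1 symbol per library (red and orange, transplanted 4T1 and PyMT; dark and light blue, spontaneous BRCA1-null and Neu). In each row the 3 transplanted symbols lie apart from the 4 spontaneous ones, such as Snhg18 at under 1 CPM against at least 44.5 CPM.

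The start regions of 4 of these genes are shown because they were unlike in CpG, the dinucleotide at which mammalian DNA is methylated. Each window runs from 250 bases before to 50 bases after the start in RefSeq (GRCm38.p6), 5′ to 3′ on the strand of the gene, with each CG in capitals. They are Krt7 (chr15:101412153-101412452, plus strand, 21 CG) and Rnf19b (chr4:129057894-129058193, plus, 34 CG), which rose, and Snhg18 (chr15:32244613-32244912, minus, 31 CG) and Krt23 (chr11:99493071-99493370, minus, 6 CG), which fell.
Krt7: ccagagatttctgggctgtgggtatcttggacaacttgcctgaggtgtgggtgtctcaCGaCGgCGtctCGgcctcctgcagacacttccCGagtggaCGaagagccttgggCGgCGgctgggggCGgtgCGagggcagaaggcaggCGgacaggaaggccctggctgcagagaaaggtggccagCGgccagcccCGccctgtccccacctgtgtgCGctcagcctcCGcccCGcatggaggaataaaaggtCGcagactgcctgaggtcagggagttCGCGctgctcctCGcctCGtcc
Rnf19b: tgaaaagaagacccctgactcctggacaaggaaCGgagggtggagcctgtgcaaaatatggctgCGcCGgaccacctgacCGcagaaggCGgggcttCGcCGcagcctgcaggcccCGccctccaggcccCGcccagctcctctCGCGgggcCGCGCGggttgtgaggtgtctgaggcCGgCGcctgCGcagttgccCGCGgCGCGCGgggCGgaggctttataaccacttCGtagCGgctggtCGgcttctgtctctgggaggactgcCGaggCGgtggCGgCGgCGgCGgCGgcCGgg
Snhg18: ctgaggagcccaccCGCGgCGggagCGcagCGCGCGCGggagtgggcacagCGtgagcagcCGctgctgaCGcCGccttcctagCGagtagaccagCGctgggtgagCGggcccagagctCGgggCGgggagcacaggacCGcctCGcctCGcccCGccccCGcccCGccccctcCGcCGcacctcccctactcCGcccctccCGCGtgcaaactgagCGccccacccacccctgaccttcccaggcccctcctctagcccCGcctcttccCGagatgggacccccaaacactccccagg
Krt23: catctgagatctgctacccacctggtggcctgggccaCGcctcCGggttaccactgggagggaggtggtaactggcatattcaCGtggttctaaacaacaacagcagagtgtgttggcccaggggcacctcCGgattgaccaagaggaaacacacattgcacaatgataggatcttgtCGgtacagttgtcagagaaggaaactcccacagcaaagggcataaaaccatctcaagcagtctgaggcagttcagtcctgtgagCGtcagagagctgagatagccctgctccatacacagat
A window was found for 12 of the 16 genes, which held 6 to 38 CG with a median of 18, against a median of 22 over the 9851 tested genes with a window (for each the window with the most CG) and of 7 over all 32851 windows. Genes that rose and genes that fell were both found among CG-rich windows, so the count did not divide the directions. Methylation was not measured.

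The genes with the widest gap, whether or not they passed the test, were next ordered by what they do. The gap is the log2 distance from the lowest library of the higher origin to the highest of the other, and named genes had a mean of at least 50 CPM in the higher origin. Csf3 had the widest gap among the higher genes at that level. It encodes granulocyte colony-stimulating factor, the hormone-like protein that drives neutrophil production. Csf3 was at 1019 CPM in 4T1, 2464 and 436 CPM in PyMT A and B, 20.7 and 22.0 CPM in BRCA1-null A and B, and 35.2 and 8.04 CPM in Neu A and B. The lowest transplanted tumor thus held 12.4 times the highest spontaneous one, but the 3 transplanted tumors differed widely among themselves, and the test was missed (log2 difference 5.92 ± 0.77 SE, adjusted p = 0.0518).

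The genes of MHC class II antigen presentation were the fullest group among the separating genes, with 4 of 7 tested higher against 8.10% of all genes. MHC class II molecules display peptides to CD4+ T cells. They are classically made by dendritic cells, macrophages and B cells, and epithelial cells can be brought to make them by interferon gamma through the transactivator Ciita. Cd74, the invariant chain that guides the class II dimer through the cell, was at 3127 CPM in 4T1, 472 and 522 CPM in PyMT A and B, 54.2 and 59.6 CPM in BRCA1-null A and B, and 6.90 and 2.65 CPM in Neu A and B. H2-Ab1, the beta chain of the class II molecule I-A, was at 759.9 CPM in 4T1, 159.7 and 157 CPM in PyMT A and B, 27.7 and 19.9 CPM in BRCA1-null A and B, and 2.79 and 2.26 CPM in Neu A and B. H2-Aa, its alpha chain, was at 1018 CPM in 4T1, 43.3 and 50.3 CPM in PyMT A and B, 30.3 and 16.7 CPM in BRCA1-null A and B, and 1.92 and 0.581 CPM in Neu A and B. The order was the same for these 3 genes, with 4T1 far above PyMT, PyMT above BRCA1-null, and Neu lowest.

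H2-DMa, which helps to load peptides, followed with 185 CPM in 4T1, 25.3 and 31.4 CPM in PyMT A and B, 9.08 and 8.47 CPM in BRCA1-null A and B, and 5.11 and 4.59 CPM in Neu A and B. H2-DMb1, its partner, overlapped, since Neu tumors reached 60.3 CPM and PyMT tumors 44.3 and 48.9 CPM. H2-Eb1 was at 1021 CPM in 4T1, the only BALB/C tumor, and at no more than 4.53 CPM in any other tumor. Strain could not be told apart from the line for this gene. Ciita was likewise at 7.57 CPM in 4T1 and at no more than 1.14 CPM elsewhere. None of the 7 genes passed the test, with log2 differences from 1.47 to 7.71, adjusted p from 0.117 to 0.388 and a median difference of 4.78. The summed level of the list was 749 to 6317 CPM in transplanted and 65.7 to 138 CPM in spontaneous tumors.

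The summed leukocyte transcripts did not order the tumors as the class II values did. The summed immune list was at 9.95 to 15.7 CPM in transplanted tumors, 54.2 and 104 CPM in BRCA1-null A and B, and 5.41 and 2.74 CPM in Neu A and B. In 4T1, where Cd74 was at 3127 CPM, the whole library held 2 UMIs of Ptprc, 4 of Csf1r and 55 of Lyz2. Of the 6 immune genes tested 5 had a fitted difference below 0, and the macrophage gene Cd68 was above 0. Cd68 was at 2.38 CPM in 4T1 and 9.64 and 10.5 CPM in PyMT A and B. It was at 5.14 and 9.60 CPM in BRCA1-null A and B, and 0.349 and 0.775 CPM in Neu A and B. For Cd68, as for Cd74, PyMT thus lay above Neu. In keratin cells, which hold no Ptprc UMI by definition, Cd74 was at 3115 CPM in 4T1, 465 and 516 CPM in PyMT A and B, 23.7 and 29.2 CPM in BRCA1-null A and B, and 7.02 and 2.71 CPM in Neu A and B. H2-Ab1 in the same cells was at 757 CPM in 4T1, 157 and 156 CPM in PyMT A and B, 12.6 and 8.26 CPM in BRCA1-null A and B, and 2.77 and 2.35 CPM in Neu A and B. The levels of 4T1, PyMT and Neu were close to those of all cells, of which keratin cells made up 90.5% to 97.9% in these libraries. BRCA1-null tumors had less in keratin cells than among all cells (Cd74 at 54.2 and 59.6 CPM in A and B among all cells). With Ptprc so scarce, its absence from a cell cannot exclude a leukocyte. The cells that made the class II transcripts were not determined. H2 genes differ in sequence between mouse strains and the reads were aligned to the C57BL/6 genome, so levels of BALB/C and FVB/NJ tumors may carry unequal losses. That part was not tested.

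**Figure D2:**
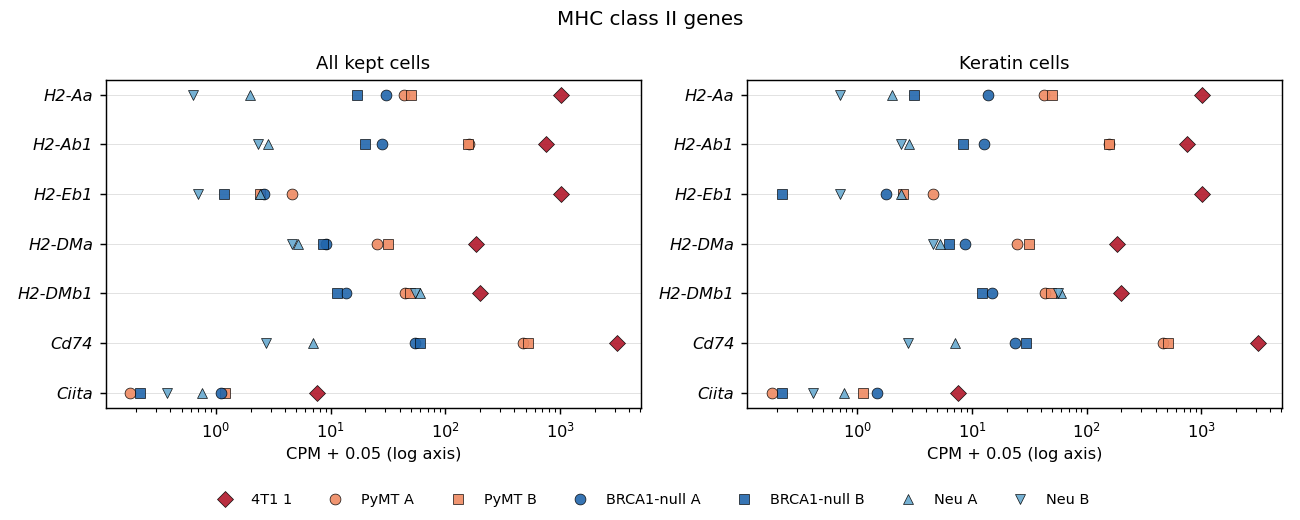
The 7 MHC class II genes as CPM plus 0.05 on a log axis, per library, from all kept cells (left) and from keratin cells (right). In both panels 4T1 lies highest for each gene, and the PyMT tumors exceed the spontaneous ones for Cd74, H2-Aa, H2-Ab1 and H2-DMa.

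Promoters of class II genes share a set of short elements, of which the Y box holds the letters TGATTGG. It is shown in capitals in the start windows of H2-Aa (chr17:34287774-34288073, minus strand), H2-Eb1 (chr17:34305617-34305916, plus) and H2-DMb1 (chr17:34152941-34153240, plus), read as above.
H2-Aa: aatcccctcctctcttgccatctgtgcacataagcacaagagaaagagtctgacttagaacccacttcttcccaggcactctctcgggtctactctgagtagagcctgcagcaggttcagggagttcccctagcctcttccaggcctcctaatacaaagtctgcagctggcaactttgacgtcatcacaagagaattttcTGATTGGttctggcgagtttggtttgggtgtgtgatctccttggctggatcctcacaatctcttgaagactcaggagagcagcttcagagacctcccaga
H2-Eb1: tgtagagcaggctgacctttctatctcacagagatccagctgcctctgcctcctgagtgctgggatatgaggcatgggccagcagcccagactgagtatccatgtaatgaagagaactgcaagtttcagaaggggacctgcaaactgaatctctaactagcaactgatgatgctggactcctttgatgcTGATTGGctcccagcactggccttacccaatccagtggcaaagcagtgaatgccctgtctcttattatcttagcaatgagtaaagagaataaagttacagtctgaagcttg
H2-DMb1: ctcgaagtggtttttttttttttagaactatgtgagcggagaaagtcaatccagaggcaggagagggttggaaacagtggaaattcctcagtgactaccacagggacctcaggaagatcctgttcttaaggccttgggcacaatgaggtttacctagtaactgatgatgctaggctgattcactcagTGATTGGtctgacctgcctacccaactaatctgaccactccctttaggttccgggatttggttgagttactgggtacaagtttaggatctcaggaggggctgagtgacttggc
The letters began at positions 201, 190 and 188 of the windows, counted from 1 at the 5′ end. On either strand they occurred in 7.82% of all windows. H2-DMa had 2 windows, and the letters were not in the one nearest to its annotated start (chr17:34122582-34122881, plus). That window does not contain the annotated start at 34119541, and the other window is not shown. Whether H2-DMa holds the letters at another start was therefore not settled. H2-Aa separated the origins, whereas H2-Eb1 and H2-DMb1 did not, so genes with the same letters differed in pattern.

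Neighboring genes on chromosome 1 were among those of widest gap. Ifi202b, Ifi203 and Mndal belong to the Ifi200 family of interferon-inducible nucleic acid sensors and lie between 173849126 and 173982744. Ifi202b was at 289.9 CPM in 4T1, 613 and 339 CPM in PyMT A and B, 12.9 and 41.4 CPM in BRCA1-null A and B, and 6.20 and 1.61 CPM in Neu A and B. Ifi203 was at 327 CPM in 4T1, 223 and 213 CPM in PyMT A and B, 12.1 and 32.6 CPM in BRCA1-null A and B, and 2.36 and 0.581 CPM in Neu A and B. Mndal was at 210.1 CPM in 4T1, 55.9 and 78.0 CPM in PyMT A and B, 2.12 and 11.4 CPM in BRCA1-null A and B, and 0.960 and 0.194 CPM in Neu A and B. The spontaneous library nearest to the transplanted ones was BRCA1-null B for all 3, and Neu B was the farthest. None passed, with adjusted p from 0.118 to 0.147. The annotated spans of Ifi203 and Mndal overlap and the family is repetitive and differs between strains, so the split of counts among the 3 is uncertain.

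The interferon and class I lists held no gene that passed. Of 20 interferon response genes 3 separated, all higher (Irf7, Ifit3 and Gbp2), where 8.10% of all genes did so, and the median log2 difference was 1.65 against -0.10 over all genes. Irf7, the transcription factor that amplifies type I interferon, was at 110.1 CPM in 4T1, 177 and 289 CPM in PyMT A and B, 21.9 and 51.5 CPM in BRCA1-null A and B, and 43.0 and 29.8 CPM in Neu A and B (log2 difference 2.39 ± 0.44 SE, adjusted p = 0.0943). Of 14 genes of MHC class I and peptide loading 3 separated, again all higher (Psmb8, Psmb10 and Nlrc5) and again against 8.10% of all genes, and all 14 fitted differences were above 0, with a median of 1.04. Psmb8, a subunit of the immunoproteasome, was at 1081 CPM in 4T1, 405 and 613 CPM in PyMT A and B, 223 and 226 CPM in BRCA1-null A and B, and 229.7 and 140.1 CPM in Neu A and B (log2 difference 1.77 ± 0.39 SE, adjusted p = 0.119). For Irf7 the PyMT tumors lay above 4T1, and for Psmb8 and Nlrc5 4T1 was highest. Nlrc5, the transactivator of class I genes, was at 17.3 CPM in 4T1, 2.94 and 2.98 CPM in PyMT A and B and 0.904 to 1.53 CPM in the others.

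Signals to other cells were mixed. Of 17 chemokines and colony-stimulating factors 3 separated higher (Csf1, Csf3 and Cx3cl1) and 1 lower (Cxcl12). Among all genes tested 8.10% separated higher and 8.66% lower, 16.8% in all. Wnt7b, a secreted Wnt ligand, was at 79.4 CPM in 4T1, 72.9 and 18.3 CPM in PyMT A and B, 2.57 and 3.99 CPM in BRCA1-null A and B, and 0.917 and 0.355 CPM in Neu A and B (log2 difference 4.87 ± 0.92 SE, adjusted p = 0.0984). Against it, 4 of the 22 Wnt and TGF-beta genes tested separated lower (8.66% of all genes did), namely Wnt5a, Lef1, Inhbb and Id2. Id2, an inhibitor of basic helix-loop-helix factors, was at 16.5 CPM in 4T1, 41.3 and 45.4 CPM in PyMT A and B, 61.7 and 209 CPM in BRCA1-null A and B, and 350.3 and 250.0 CPM in Neu A and B (log2 difference -2.66 ± 0.66 SE, adjusted p = 0.132). Lef1, a transcription factor of the Wnt pathway, was at or below 0.132 CPM in transplanted tumors and reached 17.7 CPM in BRCA1-null A but only 0.598 CPM in BRCA1-null B. The ErbB ligands Areg, Hbegf and Epgn separated higher, 3 of 11 genes of that list, against 8.10% of all genes. Hbegf, a ligand of the EGF receptor, was at 711 CPM in 4T1, 527 and 671 CPM in PyMT A and B, 226 and 349 CPM in BRCA1-null A and B, and 44.0 and 21.6 CPM in Neu A and B (log2 difference 1.99 ± 0.87 SE, adjusted p = 0.308), so that BRCA1-null tumors lay nearer to the transplanted ones than Neu did.

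Epithelial and surface genes gave the longest list of higher genes. Of 22 epithelial keratin and junction genes 7 separated, all higher (Krt7, Krt8, Cdh1, Tjp1, Pkp3, Spint1 and Lsr). Over all genes tested 8.10% separated higher. In this list 21 fitted differences were above 0 and the median was 1.25. Cdh1, the adhesion protein E-cadherin, was at 109 CPM in 4T1, 261 and 191 CPM in PyMT A and B, 21.2 and 43.1 CPM in BRCA1-null A and B, and 43.1 and 54.8 CPM in Neu A and B (log2 difference 2.202 ± 0.42 SE, adjusted p = 0.104). Krt8 was at 1443 CPM in 4T1, 6886 and 7612 CPM in PyMT A and B, 300.0 and 1100.2 CPM in BRCA1-null A and B, and 761 and 1270.4 CPM in Neu A and B (log2 difference 2.63 ± 0.68 SE, adjusted p = 0.138). Keratin cells are chosen partly by their Krt8 UMIs, so for Krt8 they cannot show what the other cells contributed. In keratin cells BRCA1-null B reached 1641 CPM of Krt8 and overlapped 4T1 at 1433 CPM. Cdh1 still separated there, with 109 CPM in 4T1, 261 and 189 CPM in PyMT A and B, 24.3 and 62.1 CPM in BRCA1-null A and B, and 43.1 and 55.4 CPM in Neu A and B.

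Annexins, calcium-dependent membrane binders, and integrins with laminins, through which epithelium holds to its basement membrane, held 5 separating genes each, all higher. Of all genes tested 8.10% separated higher. The annexins were Anxa1, Anxa2, Anxa3, Anxa5 and Anxa7, of 18 tested genes on the annexin and S100 list. Anxa1 was at 1158 CPM in 4T1, 2759.5 and 1787 CPM in PyMT A and B, 163 and 823 CPM in BRCA1-null A and B, and 111 and 131 CPM in Neu A and B (log2 difference 2.63 ± 0.79 SE, adjusted p = 0.174). Anxa5 was at 865 CPM in 4T1, 393 and 378 CPM in PyMT A and B, 91.8 and 258 CPM in BRCA1-null A and B, and 111 and 86.4 CPM in Neu A and B (log2 difference 2.00 ± 0.51 SE, adjusted p = 0.138). For both the spontaneous library nearest to the transplanted ones was BRCA1-null B. The integrin and laminin genes were Itgav, Itgb4, Itgb6, Lama5 and Lamb3, of 21 tested, and Itgav, the alpha v subunit, was at 43.1 CPM in 4T1, 91.4 and 62.5 CPM in PyMT A and B, 31.3 and 29.4 CPM in BRCA1-null A and B, and 20.9 and 23.4 CPM in Neu A and B (log2 difference 1.32 ± 0.33 SE, adjusted p = 0.132).

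The other higher genes of widest gap were Basp1, Sgms2, Fam107b and Las1l. Basp1, a membrane-bound signaling protein, was at 299.6 CPM in 4T1, 1720.4 and 1161 CPM in PyMT A and B, 50.8 and 80.4 CPM in BRCA1-null A and B, and 40.9 and 77.3 CPM in Neu A and B (log2 difference 4.09 ± 0.61 SE, adjusted p = 0.0633), and PyMT exceeded 4T1. Sgms2, a sphingomyelin synthase, was at 107 CPM in 4T1, 165 and 93.2 CPM in PyMT A and B, 8.47 and 22.3 CPM in BRCA1-null A and B, and 9.39 and 25.1 CPM in Neu A and B (log2 difference 2.90 ± 0.49 SE, adjusted p = 0.0779). Las1l, a ribosome biogenesis protein, was at 213 CPM in 4T1, 213 and 169 CPM in PyMT A and B, 56.1 and 36.6 CPM in BRCA1-null A and B, and 63.4 and 64.1 CPM in Neu A and B (log2 difference 1.85 ± 0.29 SE, adjusted p = 0.0705). Fam107b was at 199 CPM in 4T1, 465 and 244 CPM in PyMT A and B, 18.3 and 74.4 CPM in BRCA1-null A and B, and 2.97 and 3.13 CPM in Neu A and B (log2 difference 3.61 ± 1.15 SE, adjusted p = 0.196), with more in BRCA1-null than in Neu tumors.

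The lower genes of widest gap fell into those high in Neu tumors, those high in BRCA1-null tumors and those high in both. Apoc1, a small apolipoprotein, was at 2.16 CPM in 4T1, 6.20 and 13.1 CPM in PyMT A and B, 161 and 49.0 CPM in BRCA1-null A and B, and 955 and 3486 CPM in Neu A and B (log2 difference -7.34 ± 1.79 SE, adjusted p = 0.132). Cldn10, a tight junction protein, was at 1.23 CPM in 4T1, 1.47 and 2.11 CPM in PyMT A and B, 23.5 and 29.7 CPM in BRCA1-null A and B, and 259 and 454 CPM in Neu A and B (log2 difference -6.89 ± 1.35 SE, adjusted p = 0.104). Enho, Ncald, Smpdl3a and Cited4 had the same order, with Neu at 143 to 298 CPM, BRCA1-null at 5.71 to 46.8 CPM and transplanted tumors at 0.663 to 13.9 CPM. Cited4, a transcriptional coactivator, was the 1 gene of 14 on the alveolar and milk list that separated, where 8.66% of all genes separated lower.

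Apoe, a lipid carrier, led the genes that were high in BRCA1-null tumors. It was at 12.2 CPM in 4T1, 9.71 and 3.65 CPM in PyMT A and B, 1313 and 392 CPM in BRCA1-null A and B, and 121 and 99.2 CPM in Neu A and B (log2 difference -5.82 ± 1.20 SE, adjusted p = 0.109). Gas1, a membrane protein of Hedgehog signaling, was at 0.176 CPM in 4T1, 1.41 and 0.603 CPM in PyMT A and B, 148 and 54.3 CPM in BRCA1-null A and B, and 6.29 and 3.97 CPM in Neu A and B, and Ppic, a cyclophilin, was at 0.572 CPM in 4T1, 0 and 1.05 CPM in PyMT A and B, 57.0 and 164 CPM in BRCA1-null A and B, and 3.80 and 9.62 CPM in Neu A and B. All 3 separated in keratin cells too, where BRCA1-null A and B held 1058 and 267 CPM of Apoe, 143 and 31.3 CPM of Gas1, and 52.0 and 64.8 CPM of Ppic. In BRCA1-null B these were all below the levels among all cells. Collagens moved with the same libraries. Of 20 fibroblast and matrix genes only Mmp2 separated, where 8.66% of all genes separated lower, and the median log2 difference was -4.86. The summed list was at 741 CPM in 4T1 (388 CPM of it Fn1) and 15.5 and 39.0 CPM in PyMT A and B. It was at 1306 and 5465 CPM in BRCA1-null A and B and at 79.0 and 31.0 CPM in Neu A and B. The sum thus overlapped between the origins and was highest in BRCA1-null tumors. The part of fibroblast transcripts in Apoe, Gas1 and Ppic was not tested beyond the keratin cells.

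Fabp5 and Tceal8 were high in both spontaneous models. Fabp5, a fatty acid binding protein, was at 105 CPM in 4T1, 238 and 324 CPM in PyMT A and B, 1534 and 788 CPM in BRCA1-null A and B, and 810.4 and 800.3 CPM in Neu A and B (log2 difference -2.14 ± 0.48 SE, adjusted p = 0.121), with BRCA1-null A above the other 3 spontaneous tumors. Tceal8 was at 1.10 CPM in 4T1, 25.3 and 7.89 CPM in PyMT A and B, 126 and 91.2 CPM in BRCA1-null A and B, and 121 and 91.7 CPM in Neu A and B (log2 difference -3.24 ± 0.92 SE, adjusted p = 0.161), and the PyMT tumors lay between 4T1 and the rest. Serpina3n, a secreted protease inhibitor that was higher in Neu than in BRCA1-null tumors, was at 1.01 CPM in 4T1, 1.66 and 1.99 CPM in PyMT A and B, 20.3 and 61.2 CPM in BRCA1-null A and B, and 104 and 205 CPM in Neu A and B (log2 difference -5.97 ± 0.91 SE, adjusted p = 0.0659). Of 18 genes of fatty acid and lipid handling 2 separated, both lower (Fabp5 and Plin3), a share near the 8.66% of all genes, 16 fitted differences were below 0, and the median was -1.59.

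**Figure D3:**
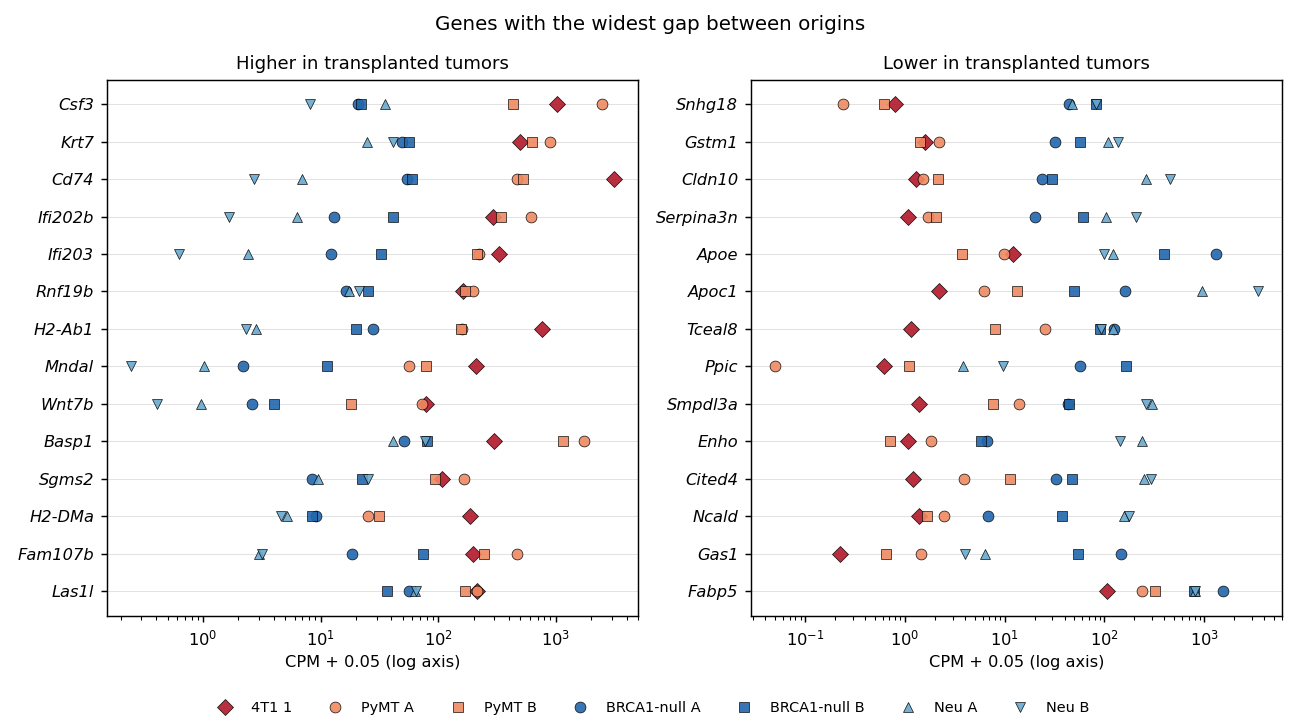
The 14 genes with the widest gap in each direction, as CPM plus 0.05 on a log axis with 1 symbol per library. Higher genes such as Csf3 and Cd74 spread within the transplanted tumors, and lower genes such as Enho and Apoc1 spread between Neu and BRCA1-null tumors.

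A pair of imprinted genes had wide gaps. Cdkn1c, an imprinted inhibitor of cyclin-dependent kinases, was at 0.528 CPM in 4T1, 1.09 and 0.211 CPM in PyMT A and B, 50.4 and 43.0 CPM in BRCA1-null A and B, and 92.5 and 9.01 CPM in Neu A and B (log2 difference -6.36 ± 1.03 SE, adjusted p = 0.0748). Grb10, an imprinted adaptor that restrains insulin signaling, was at 0.396 CPM in 4T1, 0.511 and 0.0904 CPM in PyMT A and B, 6.96 and 3.82 CPM in BRCA1-null A and B, and 18.1 and 12.8 CPM in Neu A and B (log2 difference -4.99 ± 0.87 SE, adjusted p = 0.0842). These were the 2 of 11 imprinted genes that separated, both lower, where 8.66% of all genes separated lower. Bax, a p53 target that promotes apoptosis, was higher in transplanted tumors at 138 CPM in 4T1, 191 and 195 CPM in PyMT A and B, 111 and 104 CPM in BRCA1-null A and B, and 78.8 and 75.1 CPM in Neu A and B (log2 difference 0.92 ± 0.27 SE, adjusted p = 0.17). With Cdkn1c and Pmaip1 lower, 3 of the 20 genes of the p53 pathway and cell cycle inhibitor list separated. That share is near the 16.8% of all genes that separated in either direction. None of 28 cell cycle genes separated, with a median log2 difference of -0.61, and neither did any of 10 Notch, 6 immune or 2 endothelial genes tested. Xist, the RNA that silences an X chromosome in female cells, was at 16.9 CPM in 4T1 and at 589 to 2435 CPM in the other 6 tumors, so it split 4T1 from all others and did not divide the origins.

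Stress, metabolic and remaining lists held between 0 and 2 separating genes in a direction, where 8.10% of all genes separated higher and 8.66% lower. Higher genes were Rela and Relb (NF-kB, 17 tested), Fosl1 and Klf6 (immediate early, 16), Hspa5 and Chac1 (endoplasmic reticulum stress, 14), Car9 and Ndrg1 (glycolysis and hypoxia, 23), Plaur (proteases, 23), Sox9 (EMT transcription factors, 8) and Areg (hormone sensing, 8). Lower genes were Insig1 and Srebf2 (cholesterol synthesis, 18), Hspa1a (heat shock, 12), Kit (luminal progenitor, 14) and Kcnj8 (pericyte, 3). Basal genes divided, with Itgb4 and Lamb3 higher and Mylk and Oxtr lower, of 15. Plaur, the receptor of urokinase, was at 129 CPM in 4T1, 371 and 427 CPM in PyMT A and B, 32.7 and 69.1 CPM in BRCA1-null A and B, and 2.58 and 6.39 CPM in Neu A and B (log2 difference 3.48 ± 1.07 SE, adjusted p = 0.182). Fosl1, an AP-1 subunit, was at 348 CPM in 4T1, 227 and 191 CPM in PyMT A and B, 37.1 and 95.8 CPM in BRCA1-null A and B, and 5.63 and 11.8 CPM in Neu A and B (log2 difference 2.77 ± 0.89 SE, adjusted p = 0.199). Both were lowest in Neu tumors. Hspa1a, an inducible chaperone, was at 3.61 CPM in 4T1 and 139 to 198 CPM in PyMT against 299 to 392 CPM in spontaneous tumors. It was thus by far lowest in 4T1, and the PyMT tumors also lay below all spontaneous ones.

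**Figure D4:**
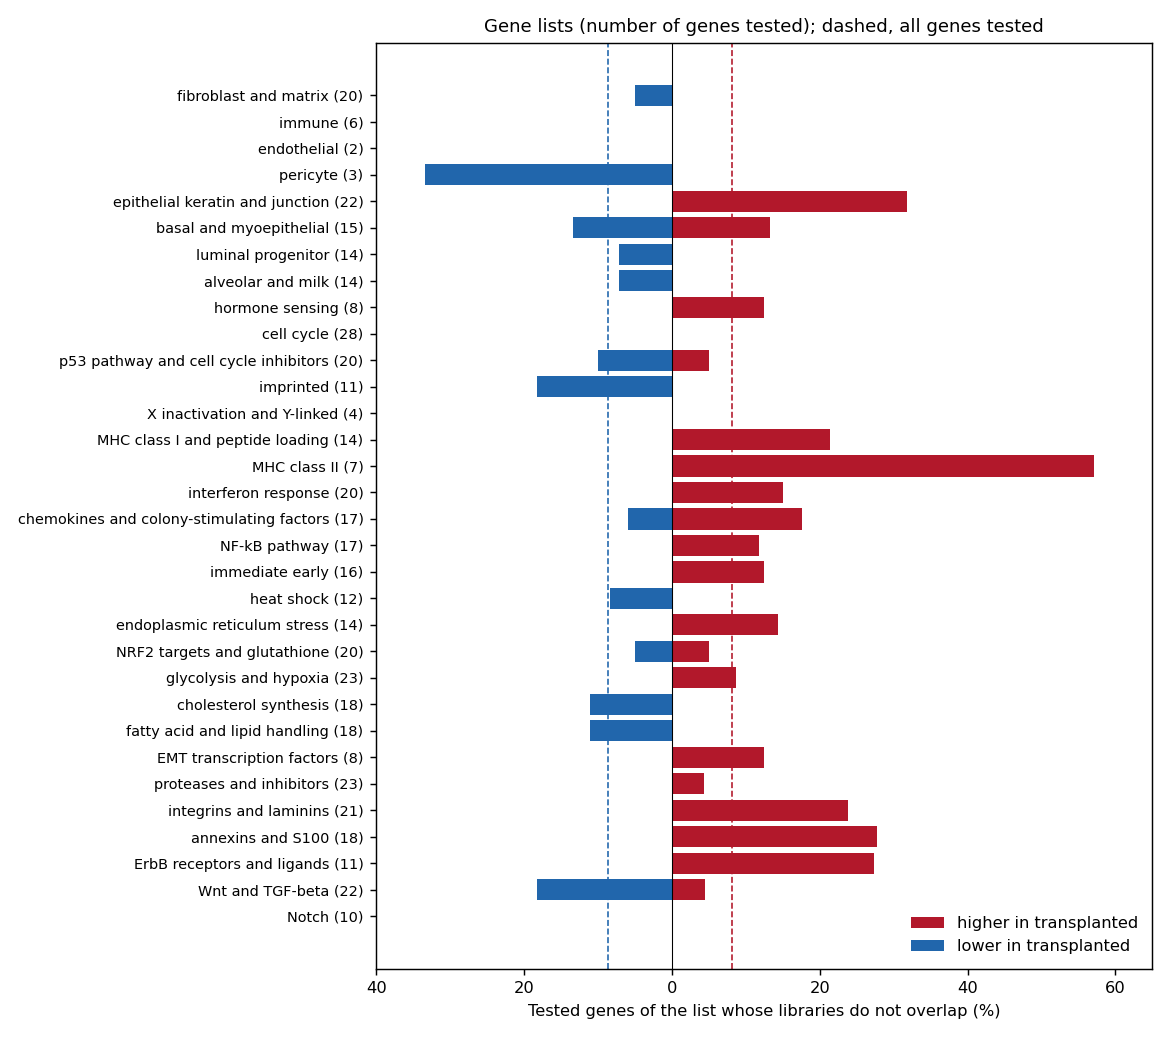
Share of the tested genes of each list that separated, in percent, to the right where higher and to the left where lower in transplanted tumors, with the number tested in brackets. The dashed lines mark 8.10% and 8.66% over all genes, and MHC class II reaches 4 of 7 genes.

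Separating genes also varied within an origin. Among the 1036 higher genes the median gap was 0.27 on the log2 scale and 80 had a gap over 1, and among the 1108 lower genes the median was 0.45 and 297 had a gap over 1. Levels of 4T1 lay within 2-fold of the PyMT mean (log2 scale, 0.1 CPM added) for 86.6% of the higher and 69.6% of the lower genes. BRCA1-null and Neu means lay within 2-fold of each other for 83.2% and 66.1%. At the edge of the rule stood genes with almost no gap, such as Tma7, whose lowest transplanted library was at 304.0 CPM and highest spontaneous at 303.9 CPM, and Acbd6. Tiprl and Uchl3 fell just outside it.

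The genes that separated were spread over the chromosomes unevenly. On chromosome 16, 60 of 396 tested genes (15.2%) separated higher and 15 (3.79%) lower, and on chromosome 8 the counts were 90 of 688 (13.1%) and 39 (5.67%). The reverse held on chromosome 6, with 18 of 614 (2.93%) higher and 91 (14.8%) lower, and on the X chromosome, with 18 of 397 (4.53%) higher and 58 (14.6%) lower. Chromosome 11 held 121 of 1060 (11.4%) higher and 77 (7.26%) lower. These shares are descriptions, since genes of a chromosome are not independent.

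**Figure D5:**
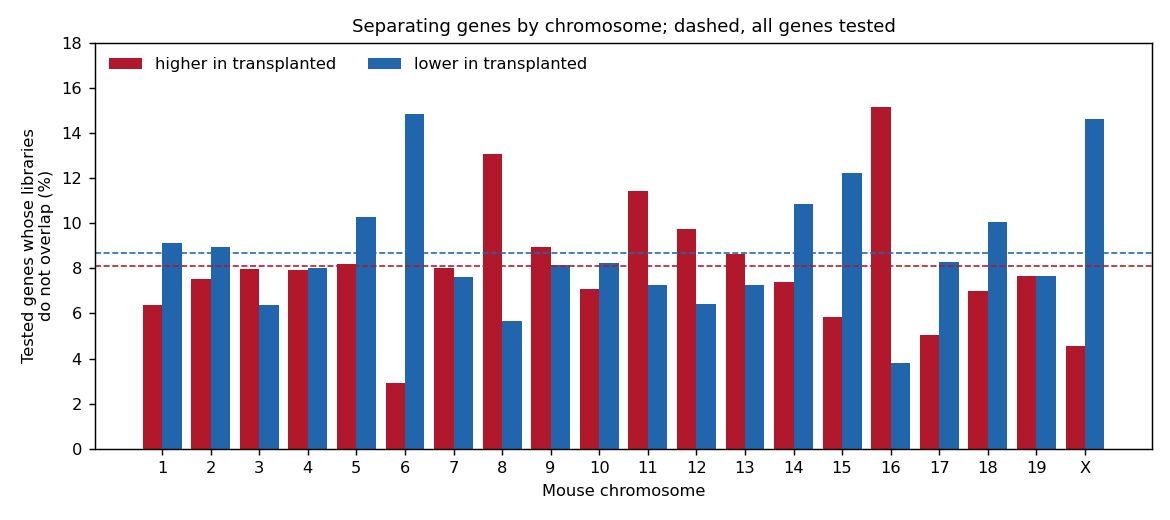
Percent of the tested genes on each mouse chromosome that separated, red where higher and blue where lower in transplanted tumors, with dashed lines at 8.10% and 8.66% for all genes. Chromosomes 16 and 8 hold more higher genes, and chromosomes 6 and X more lower genes.

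In keratin cells part of the separating genes changed. They gave 1029 genes higher and 999 lower, and 1754 of the 2144 separating genes separated the same way there, while 390 did not. Outside the BRCA1-null tumors keratin cells were 90.5% to 97.9% of the kept cells, so those values were nearly the same cells again. BRCA1-null A and B held 140 and 536 keratin cells, and mainly their values could change. All 16 genes that had passed still separated, and 80 of the 86 named genes that separated did. The exceptions among named genes were Krt8, Kcnj8, Insig1, Epgn, Tma7 and Acbd6. Of the 16 genes that passed among all cells 10 passed among keratin cells and 6 did not.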

How the data were processed

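The authors deposited raw counts of UMIs for each cell barcode, made with Cell Ranger (versions 2.2.0 and 3.0.2 in the submitters' processing notes) and STAR against the prebuilt mm10 reference. No reads were aligned again. Members, gene lists and tests were chosen with earlier results of these data known. Counts were summed per library over cells with at least 1000 UMIs, at least 500 genes and under 20% of UMIs from the 13 mitochondrial genes. Doublets were not called, and sums without the top 5% of cells by UMIs served instead. The table that combines all libraries was not used. Sums of the 7 libraries (5578911 to 37693300 UMIs each) were fitted with edgeR 4.0.16 in R 4.3.3 (TMM, filterByExpr by origin, quasi-likelihood, Benjamini-Hochberg adjustment over 12798 genes, threshold 0.05), and CPM are scaled by TMM. The steps were tested on simulated data. Replicates A and B were separate tumors according to the methods.

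Named genes were up to 14 per direction with the widest gap (mean of at least 50 CPM, prior count 2, no predicted genes), up to 3 separating genes per list by adjusted p out of 33 lists, the genes altered in the models, Cd24a, Xist and the genes at the edge of the rule. All 16 genes that passed were named as well, of which those outside the rule were chosen after their values were seen, as were H2-Aa, H2-Eb1, H2-DMb1 and Ciita. Other separating genes of a list are given by name only. Alternatives were DESeq2 1.42.0 (Wald test, and its size factors in edgeR), no low count filter, the study's own cell filters, shared barcodes removed, every barcode, a 10% mitochondrial limit, keratin cells, 1000 UMIs per cell, a contrast of the means of the 4 models, a block for the Cell Ranger version, a block for the replicate letter, and fits without each library in turn. Positions are from GENCODE M21 (GRCm38), and windows from RefSeq (GRCm38.p6).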

Additional observations from a re-analysis of the deposited data

Results flagged for a closer look

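Among 94 named genes, 9 had 1 spontaneous library far from the other 3 by the 95% limit of Dixon's ratio on CPM. That limit flags about 1 in 20 where all 4 values come from 1 normal distribution. Here the libraries came from 2 models and many genes were chosen by their levels, so that rate need not hold. In BRCA1-null B the level was apart for Mmp2 (56.7 CPM), Rela (69.9 CPM), Anxa5 (258 CPM), Anxa1 (823 CPM) and Morc4 (8.53 CPM), each of them above the other spontaneous libraries. In BRCA1-null A it was apart for Fabp5 (1534 CPM), in Neu A for Insig1 (30.4 CPM) and Vstm4 (10.1 CPM), and in Neu B for Psmb8, which was below the others (140.1 CPM). Mmp2, Anxa1 and Anxa5 are also made by fibroblasts, and BRCA1-null B held the most collagen UMIs (Col1a1 at 395 CPM). In keratin cells of that library the levels were 10.8 CPM for Mmp2, 975 CPM for Anxa1 and 208 CPM for Anxa5. Their part in the result was not tested.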

How the results depend on the processing

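Counts of separating genes (1036 higher, 1108 lower) stayed within 1.5 times under DESeq2 size factors and the cell filters tried other than thinning, with more higher (1029) than lower (999) in keratin cells, whereas the 4 higher and 12 lower genes that passed edgeR did not hold under several settings. At 1000 UMIs per cell 2 and 3 genes passed, and 650 and 573 separated. A DESeq2 Wald test called 467 and 790. A contrast of the means of the 4 models, whose error is only the spread between the 2 tumors of a model and which treats the single 4T1 tumor as varying like the others, called 1081 and 1612. With the Cell Ranger version of the submitters' notes as a block (the header of each matrix names 3.0.2, so the block also stands for whatever else set these libraries apart) 0 and 0 passed in edgeR, with 1755 genes at an unadjusted p under 0.05. With the replicate block and without 4T1, 0 and 0 passed and 2089 and 2238 separated, since fewer libraries had to stay apart. Leaving out both BRCA1-null libraries, an alternative added after seeing the data, gave 237 and 363 that passed and 3361 and 3588 that separated. Leaving out single libraries gave 0 to 12 higher and 0 to 15 lower genes that passed, and 1132 to 2089 higher and 1193 to 2238 lower genes that separated.

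Deviations of replicate B from A correlated at 0.0446 between PyMT and BRCA1-null, at 0.107 between Neu and BRCA1-null and at 0.178 between Neu and PyMT. Of the refits of named genes 1661 kept direction and side of the threshold, 146 passed there and not in the fit reported, 144 the reverse, and 7 changed sign, all of genes that overlap. Contrasting the means of the models gave log2 differences of -0.11 for Cd24a and -2.28 for Xist, and leaving out both BRCA1-null libraries gave 1.13 for Brca1. Leaving out single libraries gave -1.725 to 0.47 for Brca1, -0.70 to 0.039 for Erbb2 and -0.68 to 1.05 for Xist. The cause was not tested. Genes with under 10 UMIs in transplanted tumors have sizes that depend on the prior count.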
